A study of Ovis aries with 95 samples.

Results

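The cerebral cortex and the brainstem of fetal sheep were compared at the last age before birth, on 8 of the 95 one-colour arrays of the series. The 4 cortex and the 4 brainstem arrays were those labelled 145 days of gestational life (145 d), which the methods give as fetuses of 142 to 144 d. The series as a whole covered cortex, brainstem, hippocampus and hypothalamus at 5 fetal ages and 1 d after birth, to follow gene expression as the brain matured. The fetuses carried no transgene and received no treatment, and the labels state neither breed nor sex. According to the methods, the cortex was a section of frontal cortex, taken last, after the hypothalamus, hippocampi and brainstem, no ewe showed signs of labour, and each age included 1 set of twins that the labels do not mark. The labels do not say whether a replicate number stands for the same fetus in both regions. The p-values therefore measure the spread between the arrays of a region, and the number of arrays limits their precision. After a filter on dim probes, 11969 of 14324 genes or accessions could be tested, of which 880 carried a gene symbol.

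The cortex is the layered outer wall of the forebrain, built mainly from excitatory projection neurons that use glutamate and from inhibitory interneurons, several classes of which make peptides such as somatostatin and neuropeptide Y. The brainstem joins the forebrain to the spinal cord. It holds the monoamine nuclei, the cranial nerve nuclei and large ascending and descending fiber tracts, and its caudal part expresses HOX genes, which the forebrain does not. Myelination starts in the caudal parts of the brain and reaches the forebrain later.

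Levels are given as normalized log2 intensities, so a difference of 1 is a doubling of the signal, and levels are compared between arrays and never between genes. Every difference is cortex minus brainstem. A gene is called when limma's moderated test on the 8 arrays gave an adjusted p (Benjamini-Hochberg over the 11969 genes) under 0.05, and the words higher and lower are used of called genes alone.

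The arrays of a region resembled each other more than those of the other region. Over the genes tested, cortex arrays correlated with one another at 0.984 to 0.994, brainstem arrays at 0.988 to 0.993, and arrays of different regions at 0.935 to 0.959. Between 75.9 and 81.6% of gene probes were well above background on the cortex arrays and between 74.8 and 83.6% on the brainstem arrays. No gene spot was saturated. The unnormalized median signal was 290 to 504 on the cortex arrays and 163 to 204 on the brainstem arrays, and its part in the results was not tested beyond the other scalings given at the end. Each region was hybridized on 3 slides of its own, scanned on another day than those of the other region, so that region and slide set cannot be told apart.

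The regional difference reached a large part of the genes measured. Of 11969 genes, 6126 were called (51.2%), 3163 of them higher in cortex (26.4%) and 2963 higher in brainstem (24.8%). The groups of 4 arrays did not overlap for 5706 genes (47.7%), with cortex above for 2992 (25%) and brainstem above for 2714 (22.7%). Many of the called differences were small: 2022 of them were under 0.5 in size. A difference of at least 1 was called for 1362 genes (11.4%), 721 higher in cortex (6.02%) and 641 higher in brainstem (5.36%), and 93 and 80 of these reached at least 2. Most of the 1362 are known by accession alone (1245) and are only counted here. Among the 880 genes with a symbol, 191 were higher in cortex (21.7%) and 250 higher in brainstem (28.4%), and 53 and 64 of these differed by at least 1. All members of the gene lists below come from these 880, whose median difference was -0.043. Their shares are a nearer background for the lists than those of all genes.

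**Figure D1:**
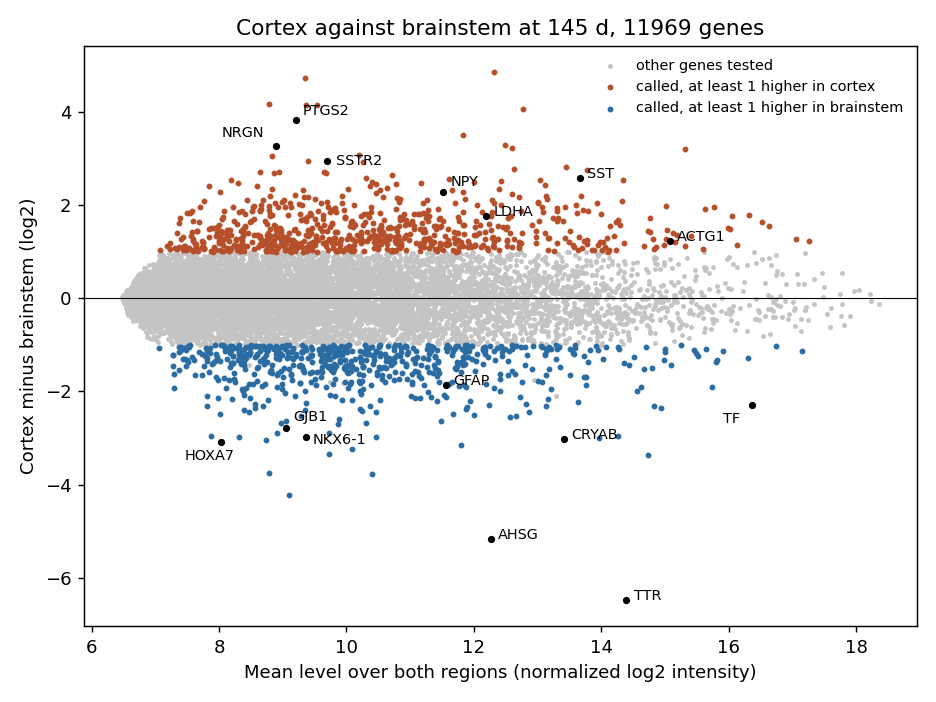
Difference between cortex and brainstem at 145 d (y axis, cortex minus brainstem, log2) against the mean level over both regions (x axis, normalized log2 intensity), with 1 point per gene for the 11969 genes tested. The 721 colored genes above 0 and the 641 below 0 were called with a difference of at least 1, black points are named genes, and TTR and AHSG lie lowest of all.

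Because each region had its own slides, the size of slide effects was taken from within the regions, in a fit of the 24 arrays of each region by age and slide. The 3 cortex slides differed for 3373 genes (28.2%) and the 3 brainstem slides for 332 genes (2.77%). The range of the slide means was small beside the larger regional differences. It had a median of 0.175 and a 95th percentile of 0.528 in cortex, and of 0.159 and 0.483 in brainstem. It exceeded the regional difference for 4 and 3 of the 1362 genes called with a difference of at least 1. Differences under about 0.5 thus lie within the range that the slides of a region alone can move. The shift between the slide sets of the regions cannot be measured from slides within a region, whatever the size of a difference. With the slide as a random block within the 8 arrays (estimated correlation 0.478), 5547 genes were called, and 1415 of them differed by at least 1.

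A list of homeobox and other transcription factors of the brainstem was used to check the labels, although not every member is particular to that region. Of 8 measured members of the list of brainstem identity genes, 7 were higher in brainstem and none higher in cortex, against 24.8% of all genes higher in brainstem. Their median difference was -1.25, against a median of -0.0065 over all genes. Between 6 and 7 members were called higher in brainstem under each of the alternative settings. The filter admits genes bright in brainstem alone, which then had to differ. Among the members, HOXA5 was well above background on no cortex array and HOXA4 on 1, so their direction is no separate support for the labels. The list of cortex identity genes could not serve in the same way, because 2 of its 25 members were on the array under a name. In lists of receptors, peptides and blood or immune genes, further members on the array were too dim to test (8 of 41 hormone receptors, 7 of 28 peptides), and the counts below are over those tested. The largest differences of this kind were those of HOXA7, which is not a member of the list, and of the members HOXA5 and NKX6-1, and the probes of HOXA4 and HOXA5 are given here because related homeobox genes share sequence. They are 60-base probes, written 5′ to 3′ as the array design lists them, with the longest run that the probe shares with a probe of another gene in capitals.
HOXA4: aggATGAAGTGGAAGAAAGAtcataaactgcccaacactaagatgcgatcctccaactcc
HOXA5: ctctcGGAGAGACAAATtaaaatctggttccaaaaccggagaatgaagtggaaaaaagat
The run in the HOXA4 probe (17 bases) is shared with HOXA7, and the run in the HOXA5 probe was 12 bases long. The HOXA7 probe shares a longer run, of 19 bases, with the NKX6-1 probe, and the part of shared sequence in their signals was not tested. In hippocampus at 145 d, NKX6-1 had a mean level of 10.20, against 10.85 in brainstem, and HOXA7 one of 6.56. NKX6-1 thus sets brainstem apart from cortex here, but hardly from hippocampus.

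HOXA7, a HOX gene of the posterior hindbrain and trunk, read 6.49, 6.53, 6.47 and 6.45 on the cortex arrays and 9.19, 9.82, 9.22 and 10.02 on the brainstem arrays. Every brainstem array lay far above the cortex arrays, none of which was well above background. For a gene dim on all arrays of a region only a bound can be given. It is the bright region's mean over the dim region's mean, with each dim array raised at least to its own lowest signal well above background. HOXA7 was at least 8.37-fold higher in brainstem (difference -3.08 ± 0.18 (SE), adjusted p = 1.82e-06 by limma). HOXA5, its neighbor in the HOXA cluster, read 6.48, 6.37, 6.37 and 6.34 in cortex and 9.58, 9.69, 8.61 and 9.52 in brainstem. Brainstem replicate 3 was the lowest of its region and still above all cortex arrays. The bound for HOXA5 was at least 7.50-fold (-2.96 ± 0.21, adjusted p = 4.77e-06). The size of such differences depends on how background is removed: on the processed signal HOXA5 was at -7.67, HOXA7 at -7.26, HOXA4 at -4.63 and HOXC6 at -3.75. NKX6-1, a factor of ventral progenitors and motor neurons of hindbrain and spinal cord, read 7.83, 7.73, 8.01 and 7.93 in cortex and 10.59, 10.85, 11.11 and 10.84 in brainstem. The groups were widely apart, and the difference was -2.97 ± 0.12 (adjusted p = 2.53e-07), or 7.84 times.

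GATA3, a zinc finger factor active in serotonin and other hindbrain neurons, read 7.16, 6.99, 7.34 and 7.30 in cortex and 9.22, 9.69, 9.43 and 10.04 in brainstem, with no overlap (-2.39 ± 0.17). Smaller differences without overlap were found for HOXC6 (-1.45), HOXA4 (-1.06) and NKX2-2 (-0.55), the last a factor of ventral neural tube and of oligodendrocyte precursors. ISL1, a factor of motor and other cranial neurons, differed by -0.35 (adjusted p = 0.00673), a call that ended when the spread was taken from all 48 cortex and brainstem arrays (adjusted p = 0.0527). Hippocampus and hypothalamus at 145 d, measured on slides of their own, gave HOXA5 levels of 6.38 ± 0.04 and 6.45 ± 0.09 (SD, n = 4), as low as those of cortex. ISL1 in hypothalamus stood at 8.50, above both regions compared here.

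The genes with a symbol and the largest differences are given first, one by one. As the samples were pieces of whole tissue, fewer cells of a type and less RNA per cell cannot be told apart. On the cortex side the 10 largest included PTGS2, NRGN, SSTR2, NEUROD1, CRHBP, SST, GRM3, NPY and HOMER. On the brainstem side they were TTR, AHSG, HOXA7, CRYAB, NKX6-1, HOXA5, EM4C, GJB1, NPPC and EM4e.

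**Figure D2:**
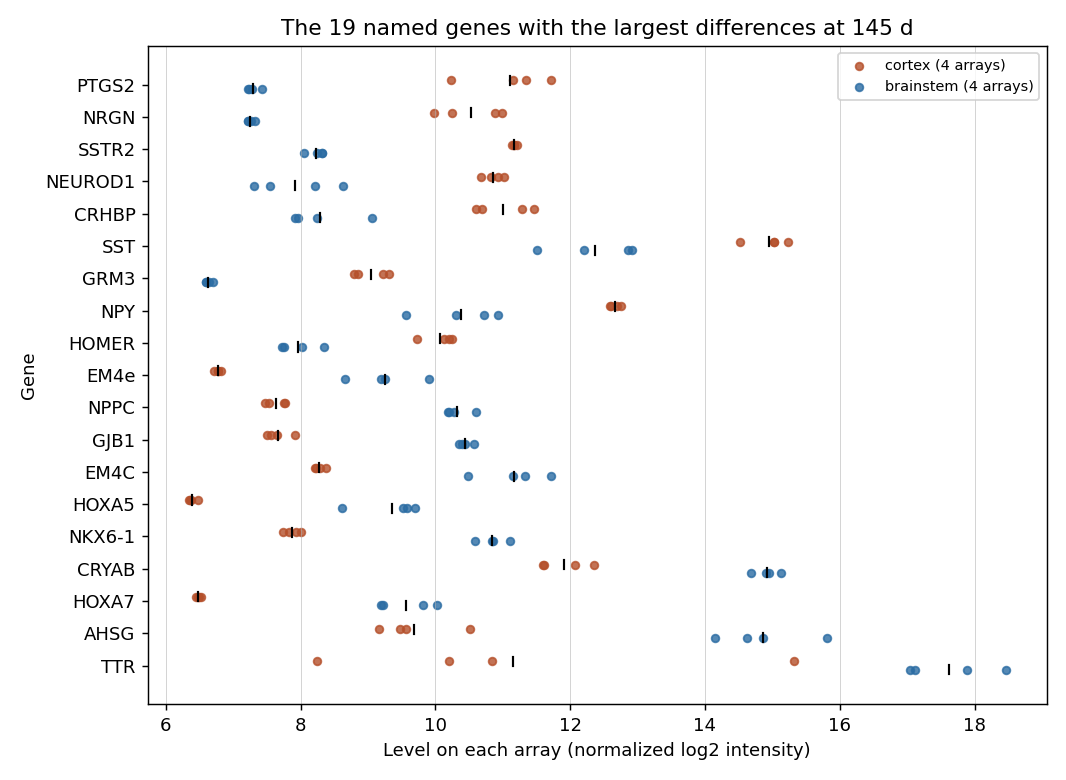
Level on each of the 8 arrays (x axis, normalized log2 intensity) for 9 genes of the largest differences on the cortex side and 10 on the brainstem side (y axis), with cortex arrays in brown, brainstem arrays in blue and a black tick at each mean. The groups do not overlap for any of the 19 genes, by the rule that chose them, and the cortex arrays of TTR spread from 8.25 to 15.33.

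PTGS2 encodes cyclooxygenase 2, the inducible enzyme of prostaglandin synthesis, which cortical neurons also express without injury. It read 11.16, 11.72, 11.34 and 10.23 on the cortex arrays and 7.21, 7.28, 7.23 and 7.43 on the brainstem arrays. Cortex replicate 4 was the lowest of its region, and the 4 brainstem arrays lay close together. The difference was 3.82 ± 0.26 (adjusted p = 3.91e-06), 14.2 times on the linear scale. A second PTGS2 probe was too dim for the filter, with means of 6.85 in cortex and 6.48 in brainstem, and averaging it in gave a difference of 2.10.

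NRGN, neurogranin, a calmodulin-binding protein of the postsynaptic side of forebrain neurons, read 10.24, 9.98, 10.99 and 10.88 in cortex and 7.22, 7.32, 7.26 and 7.23 in brainstem. All cortex arrays were above all brainstem arrays, by 3.27 ± 0.21 on average (adjusted p = 2.49e-06). HOMER, a scaffold protein of the postsynaptic density that the array names without a family number, differed by 2.11 ± 0.16. NEUROD1, a transcription factor of differentiating excitatory neurons, read 10.83, 10.93, 10.67 and 11.02 in cortex and 8.64, 8.21, 7.54 and 7.30 in brainstem. The brainstem arrays spread more than the cortex arrays, without reaching them (2.94 ± 0.26, adjusted p = 1.58e-05). PAX6, a forebrain progenitor gene that is also expressed in the hindbrain, did not pass the test (-0.22, adjusted p = 0.342) and its arrays overlapped. Of the lists of pan-neuronal genes, of GABA and glycine signalling and of calcium-binding interneuron genes, no member was on the array under a name.

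The somatostatin system was higher in cortex for both its peptide and a receptor. SST, the peptide, read 14.53, 15.03, 15.02 and 15.23 in cortex and 12.86, 12.91, 11.51 and 12.20 in brainstem. The lowest cortex array exceeded the highest brainstem array, and the difference was 2.58 ± 0.29 (adjusted p = 7.23e-05). SSTR2, one of its receptors, read 11.21, 11.17, 11.14 and 11.16 in cortex and 8.24, 8.32, 8.04 and 8.31 in brainstem. Arrays within a region were nearly equal, and the difference of 2.94 had an SE of 0.088 (adjusted p = 5.77e-08), 7.67 times on the linear scale. NPY read 12.70, 12.75, 12.60 and 12.61 in cortex and 10.30, 10.72, 9.56 and 10.93 in brainstem, and its receptor NPY1R differed by 0.82 ± 0.11. Both were without overlap, NPY by 2.29 ± 0.25. CRHBP, the protein that binds corticotropin-releasing hormone, read 11.28, 11.46, 10.69 and 10.60 in cortex and 9.06, 8.24, 7.92 and 7.96 in brainstem. Brainstem replicate 1 was the highest of its region and below every cortex array (2.71 ± 0.28). CRHR1, a receptor for the same hormone, was higher in cortex by 0.43, and UCN, urocortin, a related ligand, by 1.2.

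Other peptides were higher in brainstem. NPPC, the precursor of C-type natriuretic peptide, read 7.53, 7.76, 7.75 and 7.47 in cortex and 10.28, 10.60, 10.21 and 10.19 in brainstem, well separated (-2.69 ± 0.12, adjusted p = 4.45e-07). TAC1, the precursor of substance P, read 10.09, 9.40, 9.62 and 10.35 in cortex and 11.34, 11.32, 11.27 and 11.54 in brainstem. The brainstem arrays were close together and all above cortex, by -1.50 ± 0.19 as cortex minus brainstem. OXT, oxytocin, was higher in brainstem (-1.04) and ADCYAP1, the precursor of the peptide PACAP, in cortex (0.77). In all, 4 of 21 measured peptide and peptide hormone genes were higher in cortex, 4 higher in brainstem, and 13 did not pass, with a median of -0.17. The counts thus stood below the 26.4% and 24.8% of all genes, and it was single peptides that differed strongly. Among 33 hormone receptors, 5 were higher in cortex and 9 in brainstem, with a median of 0.01. The largest were AGTR1, the angiotensin II type 1 receptor (7.58, 7.61, 7.40 and 7.50 in cortex, 9.40, 8.91, 8.78 and 8.56 in brainstem, -1.39 ± 0.16), and NR3C2, the mineralocorticoid receptor (-1.12 ± 0.26). Neither overlapped between the regions.

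The probes of SSTR2, GRM3 and GJB1 behind these differences lie in coding sequence and are given as the parts of the messages that the arrays read, with the longest run shared with another gene's probe in capitals.
SSTR2: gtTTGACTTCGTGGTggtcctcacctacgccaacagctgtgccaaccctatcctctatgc
GRM3: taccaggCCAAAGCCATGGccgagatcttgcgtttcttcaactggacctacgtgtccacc
GJB1: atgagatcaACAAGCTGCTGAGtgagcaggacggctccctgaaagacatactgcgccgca
The shared runs were 13 bases for SSTR2, 12 for GRM3 and 13 for GJB1.

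Of 12 measured glutamate receptor genes, 3 were higher in cortex, 2 higher in brainstem and 7 did not pass, against 26.4% and 24.8% of all genes, with a median of 0.03. GRM3, a metabotropic receptor of neurons and astrocytes, read 9.22, 9.31, 8.80 and 8.85 in cortex and 6.59, 6.59, 6.70 and 6.64 in brainstem. Its signal was well above background on all 4 cortex arrays and on 1 brainstem array, and the difference was 2.41 ± 0.13 (adjusted p = 1.02e-06). A smaller offset in the background correction (16 in place of 50) widened it to 3.07 and the processed signal to 4.83. GRIA2, the AMPA receptor subunit that limits calcium entry, read 12.13, 12.36, 12.24 and 12.29 in cortex and 10.66, 10.81, 10.50 and 10.88 in brainstem, with no overlap (1.54 ± 0.10). GRIN1, the obligatory NMDA receptor subunit, was higher in cortex by 0.78 ± 0.16, with its 3 probes at 1.34, 0.55 and 0.44. GRM4 (-0.65) and GRM8 (-0.38), both presynaptic metabotropic receptors, were higher in brainstem. The brightest GRIN1 probe alone gave 0.44 and was not called (adjusted p = 0.0808).

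Of 7 genes of monoamine and acetylcholine signalling, 3 were higher in brainstem and 1 in cortex, against 24.8% and 26.4% of all genes, with a median of -0.20. SLC6A4, the serotonin transporter, read 6.53, 6.44, 6.46 and 6.53 in cortex and 6.87, 7.23, 7.05 and 7.05 in brainstem. None of the cortex arrays was well above background and all brainstem arrays were, for a bound of at least 1.44-fold (-0.56 ± 0.093, adjusted p = 0.000727, and -3.64 on the processed signal). SLC6A2, the noradrenaline transporter, differed by -0.20 (adjusted p = 0.0473), which the replicate block and the slide block moved past the threshold (adjusted p = 0.104 and 0.0933), as did leaving out any 1 of the 8 arrays (0.067 to 0.0961). HRH2, a histamine receptor, was higher in brainstem (-0.58), with a cortex slide range of 0.422 and 1 probe alone at -0.27 (adjusted p = 0.123), and CHRM3, a muscarinic acetylcholine receptor, was at least 1.35-fold higher in cortex (0.48 ± 0.093). NEFH, the heavy neurofilament chain of large axons and the one neurofilament measured, read 7.04, 6.85, 6.85 and 6.89 in cortex and 8.86, 9.29, 9.25 and 8.81 in brainstem. No array overlapped, and the difference was -2.14 ± 0.13 (adjusted p = 1.85e-06, and -4.21 on the processed signal).

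Myelin and oligodendrocyte genes were all on the brainstem side. The 4 measured members were higher in brainstem, against 24.8% of all genes, and they stayed so under each alternative setting. Their median was -2.59, against -0.0065 over all genes. GJB1, connexin 32, the gap junction protein of oligodendrocytes, read 7.65, 7.56, 7.51 and 7.92 in cortex and 10.58, 10.45, 10.36 and 10.40 in brainstem. The regions were far apart and each was tight (-2.78 ± 0.11, adjusted p = 2.27e-07). CRYAB, a small heat shock protein abundant in oligodendrocytes, read 11.62, 11.59, 12.07 and 12.35 in cortex and 15.13, 14.96, 14.91 and 14.68 in brainstem, again without overlap (-3.01 ± 0.18, 8.06 times). TF, transferrin, the iron carrier that oligodendrocytes and the choroid plexus make, read 15.16, 15.09, 15.20 and 15.44 in cortex and 17.59, 17.68, 17.14 and 17.62 in brainstem. Brainstem replicate 3 stood below the rest of its region (-2.28 ± 0.13). CD9, a tetraspanin of myelin that blood cells and endothelium also carry, read 11.14, 11.50, 9.999 and 10.07 in cortex and 12.98, 12.64, 13.25 and 13.39 in brainstem. Its cortex arrays fell into 2 pairs, both below brainstem (-2.39 ± 0.33). The lower pair shared a slide, and over all ages the cortex slides differed for CD9, with a range of 1.085 (adjusted p = 0.000104). Structural myelin proteins were not among the named genes, so the list rests on genes that other cells also express.

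Of 8 measured astrocyte genes, 4 were higher in brainstem (GFAP, VIM, AQP4 and GJA1) and 2 in cortex (SLC1A3 and SLC1A2), against 24.8% and 26.4% of all genes, and MT3 and FGFR3 did not pass. The median was -0.19. GFAP, the glial intermediate filament, read 10.87, 10.92, 10.56 and 10.16 in cortex and 13.03, 12.15, 12.59 and 12.19 in brainstem, with no overlap (-1.86 ± 0.22, adjusted p = 0.000102). AQP4, the water channel of astrocyte endfeet, differed by -1.10 ± 0.25, VIM, the filament protein of immature glia and of vessels, by -0.65 ± 0.14, and GJA1, connexin 43, by -0.59 ± 0.099. SLC1A3, the glutamate transporter GLAST, read 9.84, 9.72, 9.03 and 9.67 in cortex and 8.50, 8.89, 8.79 and 8.50 in brainstem. The lowest cortex array was close to the highest brainstem array, and the difference was 0.90 ± 0.18 (adjusted p = 0.00208). For SLC1A2, the glutamate transporter GLT-1, 2 probes gave 0.90 and 0.97 and the third -0.05, for a gene mean of 0.61 ± 0.11 that was not called on the processed signal (0.42, adjusted p = 0.163). MT3, a metallothionein of neurons and astrocytes, was at 0.26 (adjusted p = 0.0906) and passed without brainstem replicate 1 (0.35), and FGFR3, a growth factor receptor, was at 0.21 and passed without cortex replicate 3 (0.31).

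TTR and AHSG had the largest differences of the genes with a symbol on the scale used here, while on the processed signal HOXA5 (-7.67) and HOXA7 (-7.26) exceeded TTR (-7.19) and AHSG. TTR, transthyretin, the thyroid hormone carrier that the choroid plexus secretes, read 15.33, 10.83, 10.20 and 8.25 on the cortex arrays and 17.04, 17.12, 17.89 and 18.46 on the brainstem arrays. The cortex arrays spread over a range that no other gene in the plot of array levels had, with replicate 1 near brainstem and replicate 4 lowest, and still none overlapped. The difference was -6.47 ± 1.204 (adjusted p = 0.00146), 88.9 times. It was -7.87 without cortex replicate 1 and -5.51 without cortex replicate 4. Hippocampus at 145 d ranged from 11.89 to 16.72.

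Other choroid plexus and ependymal genes moved less. CP, ceruloplasmin, read 6.59, 6.45, 6.56 and 6.69 in cortex and 7.56, 7.64, 7.36 and 7.39 in brainstem, apart on all arrays (-0.92 ± 0.097, and -3.72 on the processed signal). PTGDS, the prostaglandin D2 synthase of choroid plexus, meninges and oligodendrocytes, read 16.46, 16.45, 15.95 and 16.10 in cortex and 16.99, 16.67, 16.58 and 16.60 in brainstem, a small difference at a very high signal (-0.47 ± 0.14, adjusted p = 0.0205, and 0.0636 with the slide as a block). That call was also lost without cortex replicate 3 (-0.37), cortex replicate 4 (-0.42) or brainstem replicate 1 (-0.38). AQP1, the water channel of the choroid plexus, stayed near background on most arrays of both regions, at 6.68, 6.62, 6.39 and 6.41 in cortex and 6.35, 6.33, 7.13 and 6.58 in brainstem. Its arrays overlapped and it did not pass the test (-0.07, adjusted p = 0.762). Of the 4 members of the list, 3 were higher in brainstem and none in cortex, against 24.8% and 26.4% of all genes, with a median of -0.69. The part of choroid plexus tissue in the TTR and CP differences was not tested.

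AHSG, fetuin-A, a plasma glycoprotein of fetal life, read 9.17, 9.57, 9.48 and 10.52 in cortex and 14.62, 14.15, 15.81 and 14.86 in brainstem. Its 2 probes gave -5.16 and -5.19, and no array overlapped (-5.18 ± 0.36, adjusted p = 4.52e-06, 36.1 times). Hypothalamus at 145 d stood between, with a mean of 13.52. Of 6 measured plasma protein genes, which include TTR and TF, 5 were higher in brainstem, against 24.8% of all genes, with a median of -2.06. SERPINC1, antithrombin, read 7.50, 7.41, 7.68 and 7.61 in cortex and 8.93, 9.36, 9.70 and 9.60 in brainstem (-1.85 ± 0.16), while ALB, albumin, differed by -0.41 and APOA1 by -0.47, the latter short of the threshold. Erythroid genes were measured beside them, because plasma and red cells come with residual blood. HBB, the adult beta globin, read 12.60, 11.04, 12.31 and 11.86 in cortex and 12.98, 12.52, 13.65 and 12.997 in brainstem, with overlap (-1.08 ± 0.33, adjusted p = 0.02, and 0.0607 with the spread of the 48 arrays). Without brainstem replicate 3 it was -0.88 and not called. The other 3 erythroid genes measured, HBG (0.10), AHSP (-0.09) and CA1 (-0.28), did not pass, although CA1 did without brainstem replicate 3 (-0.36), with the spread of the 48 arrays and on the processed signal (-2.45). All 3 were dim. HBG was well above background on 2 cortex and 2 brainstem arrays, AHSP on 3 and 2, and CA1 on 1 and 3. The part of residual blood in the plasma protein differences was not tested.

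EM4C and EM4e, array names of sheep sequences whose function is not given here, were both higher in brainstem. EM4C read 8.22, 8.29, 8.23 and 8.37 in cortex and 11.16, 10.48, 11.72 and 11.33 in brainstem (-2.89 ± 0.22), and EM4e differed by -2.48 ± 0.21. In both, brainstem replicate 3 was the highest array and replicate 2 the lowest. Their probes share a run of 21 bases, so that their signals may not be separate.

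**Figure D3:**
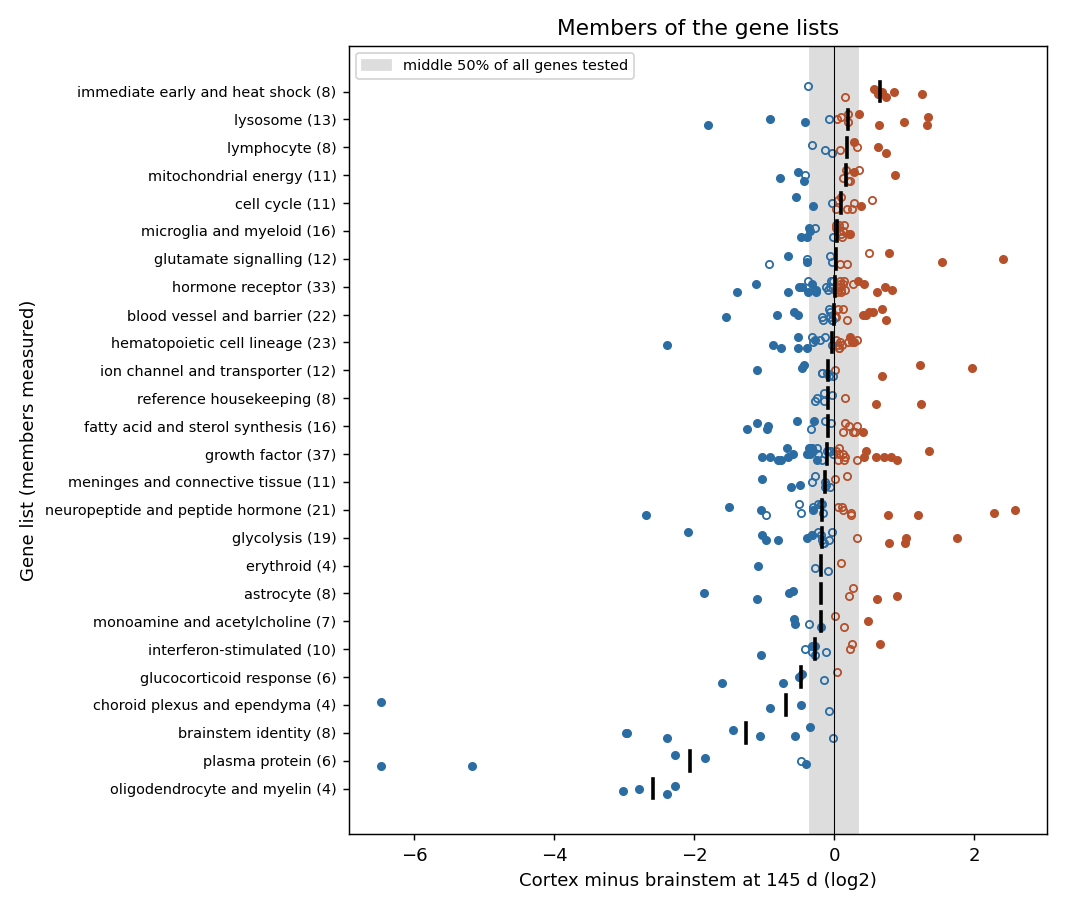
Cortex minus brainstem difference at 145 d (x axis, log2) of each measured member of the gene lists with at least 4 measured members (y axis, with the number measured). Filled points were called, open points were not, black bars are list medians, and the gray band spans the interquartile range of all genes tested. The lists of oligodendrocyte and myelin genes (median -2.59), plasma proteins (-2.06) and brainstem identity (-1.25) lie lowest, and immediate early and heat shock genes (0.65) highest.

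Immediate early and heat shock genes stood on the cortex side. Of 8 measured, 6 were higher in cortex and none in brainstem, against 26.4% of all genes, with a median of 0.65. FOS, a subunit of the AP-1 transcription factor that neuronal activity induces, read 9.07, 9.15, 8.55 and 8.82 in cortex and 7.71, 7.83, 7.60 and 7.45 in brainstem, with no overlap (1.25 ± 0.14, adjusted p = 7.31e-05). Its 4 probes ranged from 0.48 to 1.57. JUNB (0.74), MYC (0.68) and JUND (0.62), further transcription factors of this class, and HSPA5 (0.57), a chaperone of the endoplasmic reticulum, were also higher in cortex. HSP90AA1, an inducible cytosolic chaperone, read 13.39, 13.58, 12.35 and 12.65 in cortex and 12.44, 12.21, 12.03 and 11.88 in brainstem. Its groups overlapped, and the call (0.85 ± 0.26, adjusted p = 0.0193) was lost without cortex replicate 1 (0.72), brainstem replicate 3 (0.81) or brainstem replicate 4 (0.77). EGR1 (0.15) and JUN (-0.37) did not pass.

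Genes of energy metabolism are likewise set against the 26.4% of all genes higher in cortex and the 24.8% higher in brainstem. Among 19 genes of glucose and glycogen use, 4 were higher in cortex and 6 in brainstem, with a median of -0.17. LDHA, the lactate dehydrogenase chain that favors lactate formation, read 13.28, 13.45, 12.97 and 12.59 in cortex and 11.21, 11.43, 11.12 and 11.50 in brainstem, all cortex arrays above (1.76 ± 0.18, adjusted p = 3.83e-05). The glycolytic enzymes PFKM (1.01) and ALDOA (0.78) and the liver form of glycogen phosphorylase, PYGL (1.03), were higher in cortex as well. SLC16A1, the monocarboxylate transporter MCT1, read 8.43, 8.40, 9.02 and 8.97 in cortex and 10.65, 10.66, 10.85 and 10.997 in brainstem. The groups were apart (-2.09 ± 0.16), although averaging in a dim probe that failed the filter gave -1.08. HK1, the main brain hexokinase (-0.98), and the muscle and brain forms of glycogen phosphorylase, PYGM (-1.04) and PYGB (-0.80), were higher in brainstem. Of 11 mitochondrial genes, 2 were higher in cortex and 3 in brainstem, with a median of 0.17 that turned to -0.035 on the scanner's processed signal. SLC25A4, the ADP and ATP carrier, was higher in cortex by 0.86 ± 0.097, and the ATP synthase subunits ATP5MC2 (-0.78) and ATP5PO (-0.52) and the complex I subunit NDUFA2 (-0.44) in brainstem, the last not called without cortex replicate 1 (-0.37), cortex replicate 2 (-0.39), brainstem replicate 3 (-0.36) or brainstem replicate 4 (-0.40).

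Lipid genes with a difference of about 1 were on the brainstem side. Of 16 genes of fatty acid and sterol synthesis, 6 were higher in brainstem and 1, ACACA (0.40), in cortex, against 24.8% and 26.4% of all genes, with a median of -0.09. FABP5, a fatty acid binding protein, read 13.39, 12.71, 13.44 and 12.92 in cortex and 14.28, 14.42, 14.20 and 14.52 in brainstem, with no overlap (-1.24 ± 0.17). The stearoyl-CoA desaturases SCD5 (-1.10 ± 0.11) and SCD (-0.95 ± 0.22) and ACLY (-0.95 ± 0.23), which makes cytosolic acetyl-CoA, followed. Among 13 lysosomal genes, 5 were higher in cortex and 3 in brainstem, against 26.4% and 24.8%, with a median of 0.19. CTSB, the protease cathepsin B, read 11.63, 11.79, 11.18 and 11.32 in cortex and 10.33, 10.21, 10.02 and 10.01 in brainstem (1.34 ± 0.14). ATP6V0C, a subunit of the proton pump, differed by 1.32 ± 0.15 and PSAP, the saposin precursor, by 0.99 ± 0.14. NPC2, which moves cholesterol out of lysosomes, read 10.94, 10.72, 10.75 and 10.58 in cortex and 12.51, 12.41, 12.69 and 12.60 in brainstem, opposite in direction and well apart (-1.81 ± 0.10, adjusted p = 1.52e-06).

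Of 12 ion channel and transporter genes, 3 were higher in cortex and 3 in brainstem, with a median of -0.09. Over all genes the shares were 26.4% and 24.8%. ATP1B1, the beta subunit of the sodium pump, was higher in cortex by 0.68 ± 0.11, although it was not called on the processed signal (0.15, adjusted p = 0.400). Of 8 reference genes, 2 were higher in cortex and none in brainstem, against the same shares of all genes. ACTG1, the cytoplasmic gamma actin, read 15.67, 15.55, 15.82 and 15.71 in cortex and 14.52, 14.58, 14.24 and 14.47 in brainstem, clearly apart (1.23 ± 0.10). PPIA, cyclophilin A, was higher in cortex by 0.60 ± 0.090, a direction that turned to -0.012 on the processed signal. The other 6 did not pass, GAPDH at -0.15 and EEF1A1 at -0.24 among them.

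Of 6 genes of the glucocorticoid pathway, which matures the fetal organs before birth, 4 were higher in brainstem and none in cortex, against 24.8% and 26.4% of all genes, with a median of -0.48. TXNIP, an inhibitor of thioredoxin that glucose and glucocorticoids induce, read 10.65, 10.71, 10.43 and 10.45 in cortex and 12.10, 12.13, 12.30 and 12.11 in brainstem. Both regions were tight and far apart (-1.60 ± 0.098, adjusted p = 2.1e-06). HSD11B1, the enzyme that regenerates active glucocorticoid, read 7.65, 7.39, 7.84 and 8.06 in cortex and 8.34, 8.58, 8.37 and 8.55 in brainstem (-0.72 ± 0.14), with its 2 probes at -1.01 and -0.44. NR3C1, the glucocorticoid receptor, differed by -0.46 ± 0.089, and NFKBIA, an inhibitor of NF-kappaB, by -0.50 ± 0.14, the latter not called with the spread of the 48 arrays (adjusted p = 0.0625). PER1 (0.04) and HSD11B2 (-0.15) did not pass.

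Immune, vessel and growth factor lists are set against the same 26.4% and 24.8% of all genes. Among genes with a symbol, from which the lists come, these shares were 21.7% and 28.4%. For the genes of the hematopoietic cell lineage, 3 of 23 were higher in cortex and 7 in brainstem, with a median of -0.03. The study drew attention to this pathway in these same samples, as enriched among genes that rise with age in each region. The list is therefore not independent of these data, and the study gave no direction between the regions for it. Apart from CD9, its largest differences were FLT3LG, a growth factor of blood progenitors (9.05, 9.46, 9.45 and 9.54 in cortex, 10.29, 10.20, 10.20 and 10.30 in brainstem, -0.87 ± 0.11), the cytokine IL3 (-0.76 ± 0.12) and the tetraspanin CD81 (-0.52 ± 0.14), each without overlap. Of 16 microglial and myeloid genes, 1 was higher in cortex and 4 in brainstem, with a median of 0.05, and those 4, TLR3, CD14, CD86 and ITGB2, differed by -0.47 to -0.35. CD14 was not called without cortex replicate 3 or 4 or brainstem replicate 1 or 4 (-0.38 to -0.29), nor ITGB2 without cortex replicate 1 or 4 or brainstem replicate 1, 2 or 3 (-0.34 to -0.29). Both lost their calls with the slide block, and CD14, ITGB2 and CD86 with the spread of the 48 arrays (adjusted p = 0.129, 0.160 and 0.0605), and 1 CD86 probe alone was at -0.096. Of 8 lymphocyte genes, 3 were higher in cortex and none in brainstem, led by CD247 (0.74) and LCK (0.63), T cell receptor signalling proteins. The other, CR2 (0.28), was well above background on 1 brainstem array. Its call was lost with the spread of the 48 arrays (adjusted p = 0.154) and on its brightest probe (0.20, adjusted p = 0.129). It was also lost without cortex replicate 1 or 2 or brainstem replicate 3 or 4 (0.23 to 0.29). Of 10 interferon-stimulated genes, 1 was higher in cortex and 3 in brainstem, namely ISG15 (-1.05), PSMB8 (-0.32) and IRF2 (-0.27), IRF2 being called without brainstem replicate 4 but not without any of the other 7 arrays (-0.29 to -0.19). ISG15 overlapped between the regions, and neither ISG15 nor PSMB8 was called with the spread of the 48 arrays (adjusted p = 0.233 and 0.537). The slide range exceeded the regional difference for ISG15 in brainstem (1.117) and for PSMB8 in cortex (0.467) and brainstem (0.492).

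Among 22 vessel and barrier genes, 6 were higher in cortex and 4 in brainstem, with a median of -0.01. The endothelial genes PECAM1 (0.05), KDR (0.01), TIE1 (0.12) and FLT1 (-0.06) did not pass. Others of that cell type, TEK (0.49), NOS3 (0.42) and ANGPT2 (0.55), were higher in cortex. VEGFA, the main vessel growth factor, read 8.09, 7.84, 8.17 and 8.10 in cortex and 9.37, 9.36, 10.06 and 9.58 in brainstem, with no overlap (-1.54 ± 0.16, adjusted p = 3.87e-05). ANGPT1, an angiopoietin of pericytes and neurons, differed by -0.82 ± 0.12 (its probes by -0.39 and -1.24), while ABCB1, the efflux pump of the blood-brain barrier, was higher in cortex (0.74 ± 0.14), as was HIF1A (0.68 ± 0.11). Of 11 genes of meninges and connective tissue, 3 were higher in brainstem and none in cortex, with a median of -0.13: TIMP1, a metalloproteinase inhibitor (-1.03 ± 0.15), DCN, decorin (-0.62 ± 0.17), and COL1A1 (-0.48 ± 0.11). Of 37 growth factor genes, 7 were higher in cortex and 12 in brainstem, with a median of -0.10. NRG1, a ligand of ERBB receptors, read 9.68, 9.41, 9.79 and 9.32 in cortex and 8.40, 8.37, 8.16 and 7.85 in brainstem (1.36 ± 0.15). FGF2 (9.50, 8.99, 9.04 and 9.62 in cortex, 10.18, 10.18, 10.59 and 10.34 in brainstem, -1.03 ± 0.16) and WNT5A (-0.92 ± 0.11), secreted signals of neural development, were higher in brainstem, and none of the 3 overlapped. Of 11 cell cycle genes, CCNA2 was higher in cortex (0.39, adjusted p = 0.0477) and PCNA (-0.55) and CDK2 (-0.31) in brainstem, the first not called with the slide as a block (adjusted p = 0.138) or without cortex replicate 1, 3 or 4 or brainstem replicate 1, 3 or 4 (0.30 to 0.43). CDK2 was not called with the spread of the 48 arrays (adjusted p = 0.243). The muscle list held MB, myoglobin, higher in cortex (0.55), and TNNC2, a troponin, higher in brainstem (-0.67), and ALDH1A1, the one retinoid gene measured, did not pass (0.31).

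The same regional difference was then taken at the other ages, from the 48 cortex and brainstem arrays in 1 fit. The question was whether the differences at 145 d were those of the earlier fetal brain. The arrays of the other ages are other samples, but each region kept its own slides at all ages, so agreement between ages is not separate evidence on the slides. Called were 4536 genes at 80 d (37.9%), 4526 at 100 d (37.8%) and 4483 at 120 d (37.5%). The count was higher later, with 4938 at 130 d (41.3%), 5661 at 145 d (47.3%) and 5551 in newborns (46.4%). Genes with a difference of at least 1 numbered 923, 948, 1011, 1167, 1342 and 1328 in the same order.

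Of the 721 genes higher in cortex by at least 1 at 145 d, 313 were called in the same direction at 80 d, 541 at 100 d, 650 at 120 d, 700 at 130 d and 708 in newborns. Over all genes, 22.3, 22.1, 20.9 and 22.4% were higher in cortex at 80, 100, 120 and 130 d and 22.8% in newborns. Their median difference grew from 0.34 at 80 d through 0.75, 1.05 and 1.26 to 1.34 at 145 d, the age that chose them, and was 1.204 in newborns. Of the 641 genes higher in brainstem, 311, 436, 492 and 567 were called in the same direction at 80, 100, 120 and 130 d and 533 in newborns. The shares of all genes higher in brainstem were 15.6, 15.7, 16.6 and 18.9% at these fetal ages and 23.6% in newborns. Called in the same direction at all 6 ages were 298 of the 721 and 266 of the 641. Those ages include 145 d, and the same share over all genes was not counted. At 80 d, 51 of the 721 and 50 of the 641 were called in the opposite direction.

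**Figure D4:**
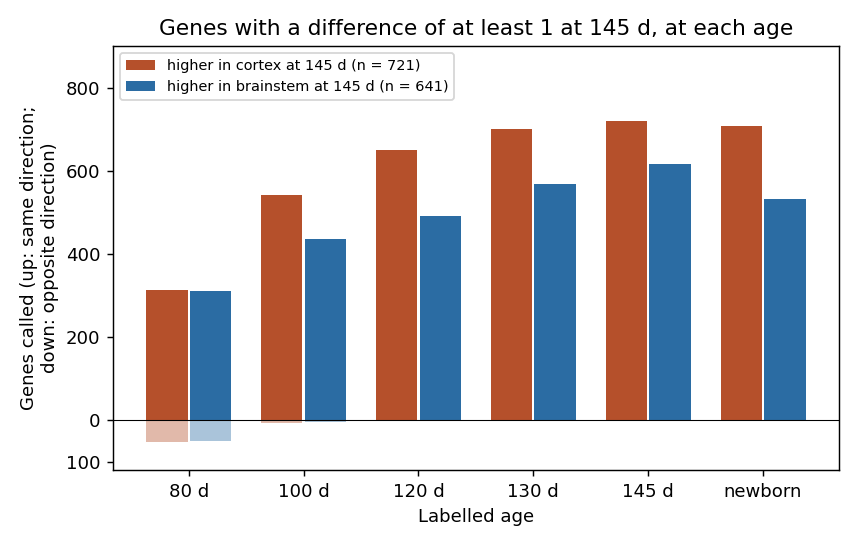
Number of genes (y axis) called at each labelled age (x axis) among the 721 genes higher in cortex (brown) and the 641 higher in brainstem (blue) by at least 1 at 145 d, with genes called in the same direction above 0 and in the opposite direction, in pale color, below 0. The same-direction bars are 313 and 311 at 80 d and 708 and 533 in newborns, and the 145 d bars are high by choice of the genes.

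The difference between the regional differences at 145 d and at 80 d was tested directly. It passed for 4133 of 11969 genes (34.5%): 2449 had the larger difference at 145 d and 1684 the smaller. For 636 genes the regions were called in opposite order at the 2 ages, 252 going from higher in brainstem to higher in cortex and 384 the other way. Between 145 d and newborns the difference changed for 1 gene (0.00835%), known by accession alone, and 1172 genes had an unadjusted p under 0.05. That count was 2 without cortex 145 d replicate 4 or brainstem newborn replicate 3, 0 without any of 8 other arrays, and 45 without brainstem newborn replicate 1.

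Among the named genes, several that led on the cortex side at 145 d had the opposite order, or no called difference, at 80 d. NEUROD1 was lower in cortex at 80 d (-0.98, adjusted p = 0.0408) and higher at every later age, from 2.00 at 100 d to 2.94 at 145 d, as the mean brainstem level dropped from 12.72 to 7.92 and the cortex level from 11.74 to 10.86. SST went from -0.80 at 80 d to 2.58, with the cortex mean rising from 13.47 to 14.95 and the brainstem mean falling from 14.27 to 12.37. For CRHBP the difference went from -0.68, which was not called, to 2.71. PTGS2 differed by 0.22 at 80 d (not called) and by 1.58, 2.78 and 3.82 at 120, 130 and 145 d. Here the brainstem mean stayed between 7.14 and 7.29 over the fetal ages while the cortex mean climbed from 7.48 to 11.11. SLC1A3 turned from higher in brainstem (-0.96) to higher in cortex (0.90). All 5 changes passed the test of the difference between the ages.

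Other genes kept their difference. SSTR2 lay between 2.69 and 2.96 at all 6 ages, and its change from 80 d to 145 d did not pass (0.25, adjusted p = 0.579). GRIA2 was higher in cortex at all ages (1.35 at 80 d, 1.54 at 145 d). HOXA5 and HOXA7 were higher in brainstem at every age. As neither was well above background in cortex at 145 d, the size of their difference and its change with age are not read. AHSG stood at -5.43 at 80 d and -5.18 at 145 d, and the change did not pass (adjusted p = 0.870). NPPC, whose difference was -3.06 at 80 d and -2.69 at 145 d, also kept its order at all ages.

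Glial genes changed in 2 ways. GJB1 differed little at 80 d (-0.39, not called) and widened to -3.55 at 130 d as the brainstem mean rose from 7.17 to 10.93. At 145 d its difference was -2.78, with the brainstem mean down to 10.45. Its cortex mean was 6.78 at 80 d and 7.66 at 145 d. TF and PTGDS narrowed instead. TF went from -4.83 at 80 d and -6.70 at 100 d to -2.28 at 145 d, with the cortex mean rising from 8.94 to 15.22. PTGDS went from -3.87 to -0.47, with both regions rising and cortex rising more. GFAP narrowed from -2.75 to -1.86 and GJA1 from -1.88 to -0.59. NEFH widened from -0.80 to -2.14. SLC16A1 went from 0.26 at 80 d, which was not called, to -2.09 at 145 d (-1.08 with its dim probe averaged in), and LDHA from 0.04 to 1.76. These genes of lactate handling thus differed in opposite directions at 145 d. Their changes with age are given as values, without a test result.

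**Figure D5:**
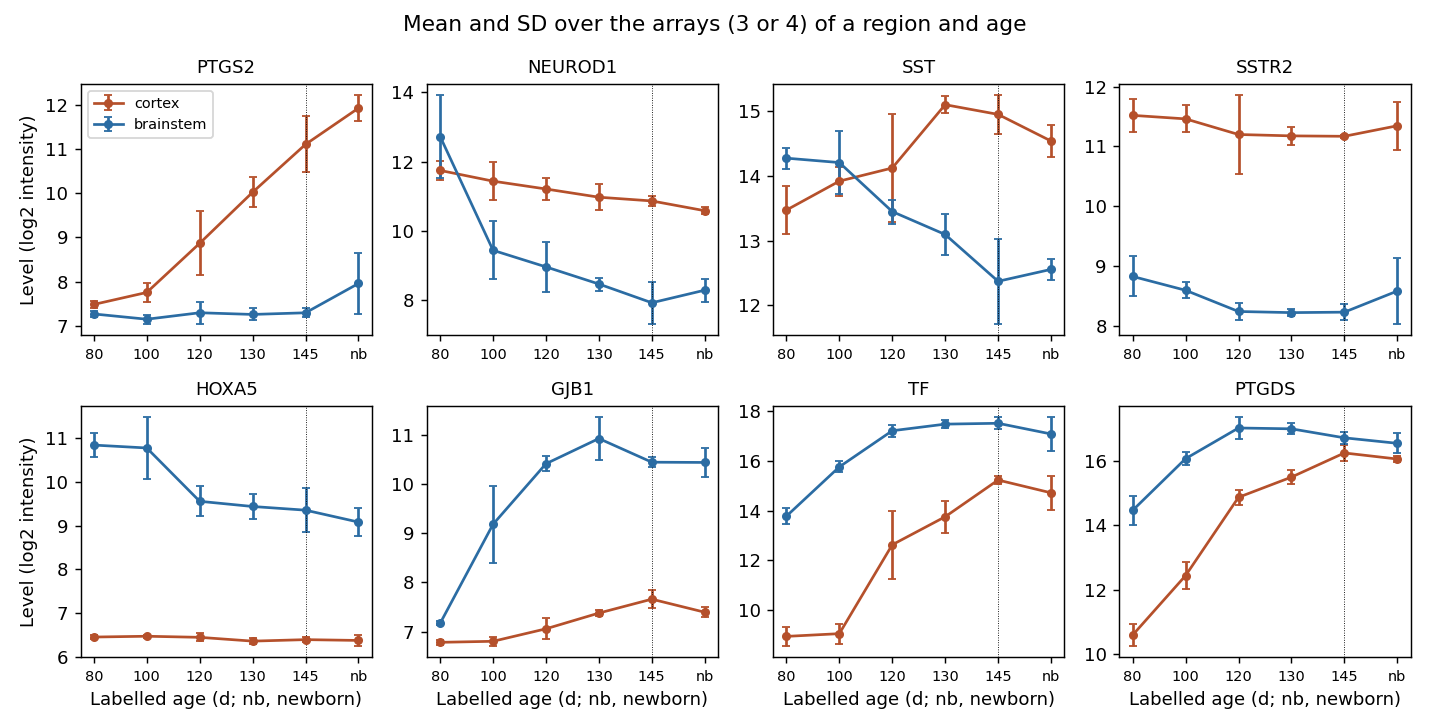
Mean level (y axis, normalized log2 intensity) with SD over the arrays of a group (4, or 3 where a spot marked as an outlier was left out) for 8 genes in cortex (brown) and brainstem (blue) at each labelled age (x axis, in days, nb for newborn), with a dotted line at 145 d. PTGS2 rises in cortex, NEUROD1 and SST change order, SSTR2 keeps its difference, HOXA5 stays at background in cortex, GJB1 rises first in brainstem, and TF and PTGDS narrow from -4.83 and -3.87 at 80 d to -2.28 and -0.47 at 145 d.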

How the data were processed

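RNA of each brain piece was labelled with Cy3 and hybridized by the authors to 60-base sheep arrays. The deposited array files hold the mean intensity and local background intensity of each spot, a processed signal, also an intensity, that the scanner software had corrected, and other marks per spot (the deposited outlier, background and saturation flags). The authors also deposited a table of log2 values after background correction and quantile normalization in limma, with 11138 probes, used as an alternative.

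Here, background was removed by normexp (offset 50), the 95 arrays were quantile normalized together, and flagged spots (4 to 15 per array among the 8) were left out. A probe was kept where 4 or more of the 8 arrays gave it 1.1 times or more the 95th percentile of their 77 negative control spots (12462 of 15008). This filter admits genes bright in 1 region alone, which then had to differ. Probes of a gene were averaged. Names came from the files and RefSeq tables, and 1681 probes had a symbol, 153 of them through an old or described name.

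Regions were compared with limma 3.58.1 in R 4.3.3 (lmFit, eBayes) on the 8 arrays, and other ages and changes with age in 1 fit of 48 arrays in groups of region and age. Benjamini-Hochberg adjustment ran over all 11969 genes. On simulated data, 92.5% of genes changed by 1 and 51% of those changed by 0.5 were recovered, and 4.97% of the calls were on unchanged genes. The simulation changed 200 genes by each size, with independent noise and no slide effect. Its shares need not hold for the data, where 51.2% of genes were called. Named were the 10 largest called, non-overlapping differences per side with a symbol, up to 4 called members per list and all members of the region, glial, choroid plexus, neurofilament and erythroid lists. A few genes that this rule names are not reported here. Other list members given with a value were chosen after their values were seen. The samples, the 33 lists and the rule were chosen with earlier results of these data known. Alternatives were another offset, the processed signal (minus its 75th percentile), the deposited table, other filters and probe rules, blocks for replicate number and slide, other variance settings and leaving out each array.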

Additional observations from a re-analysis of the deposited data

Results flagged for a closer look

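For 224 sets of 4 arrays of named genes (each gene in each region), the array farthest out was set against the range of its set, which by chance marks about 1 in 20 sets, and 11 were marked. Brainstem replicate 3 was the array in 4 of them: PAX6 (8.996), TXNIP (12.30), TF (17.14) and HOXA5 (8.61). Cortex replicate 3 was the array for CD247 (9.12), PPIA (17.19) and COL1A1 (7.29). The others were cortex replicate 1 for ATP1B1 (16.70), cortex replicate 4 for PYGM (8.66), brainstem replicate 2 for MYC (9.92) and brainstem replicate 4 for ATP1B1 (15.56). The called differences of these genes kept their direction and their call without the array in question.

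The cortex minus brainstem difference changed between 80 d and 145 d for 4133 genes over all and for 25 of the 43 named genes of the largest differences and the fully named lists. As part of the 43 were chosen by their size at 145 d, their count supports nothing beyond the values. The change, 145 d less 80 d, was positive for NEUROD1 (3.92), PTGS2 (3.61), CRHBP (3.40), PTGDS (3.40), SST (3.38), TF (2.55), NRGN (2.31), SLC1A3 (1.86), NPY (1.81), HOXA5 (1.43), GJA1 (1.29), GRM3 (1.28), HOMER (1.28), GFAP (0.89), HOXA4 (0.81), VIM (0.79), FGFR3 (0.63) and SLC1A2 (0.52). HOXA5 was not well above background in cortex at 145 d, so its change depends on how background is removed. The same limit holds for HOXA4, well above background on 1 cortex array at 145 d. It also holds for FGFR3 (3 cortex arrays and 1 brainstem array) and GRM3 (1 brainstem array). The change was negative for GJB1 (-2.40), NKX6-1 (-1.79), EM4e (-1.65), NEFH (-1.34), EM4C (-1.30), CRYAB (-0.93) and CP (-0.72). CP was well above background on 2 cortex arrays at 145 d. Between 145 d and newborns, 1 gene passed.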

How the results depend on the processing

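The number of genes called at 145 d (6126) stayed within 1.5 times of that value under every alternative tried, from 5446 to 5945 without 1 array, and 5992 with the replicate block. Genes called with a difference of at least 1 (1362) numbered 1369 with the replicate block and 1296 to 1439 without 1 array. On the processed signal they were 3223, 1316 of them higher in cortex, so that the cortex share went from 52.9 to 40.8%. Over all called genes, the cortex share went from 51.6 to 44.2% on that signal. That scaling moved the median of all genes from -0.0065 to -0.16, and it widened 35 named differences by over 1.5 times on the linear scale, most of all HOXA5 (-7.67), HOXA7 (-7.26), HOXA4 (-4.63), SLC6A4 (-3.64), CP (-3.72), GRM3 (4.83), EM4e (-4.79), HOXC6 (-3.75) and NEFH (-4.21). The change of the regional difference from 80 d passed for 3678 to 4090 genes without 1 array and 4272 with the replicate block. Against newborns the count of 1 became 0 with an offset of 16 or the processed signal, 2 with the deposited table, and 0 to 45 without 1 array, 45 being without brainstem newborn replicate 1. With the replicate block it was 1.

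Same-numbered arrays of the regions at 145 d correlated in their deviations at -0.0024 to 0.26, and 1 of 4 was most like its own number, so the numbers were not taken as pairs. The replicate block ended the calls of CCNA2, SLC6A2 and IRF2.

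Of 112 named genes, 6 lost their call with the slide block and 10 with the spread of the 48 arrays. Directions turned on the processed signal for PPIA (-0.012), MT3 (-0.21) and HBG (-0.51), and for 1 SLC1A2 probe alone (-0.047). Without 1 array, genes that had not passed changed sign: HBG (-0.086 to 0.28), AQP1 (-0.16 to 0.11) and AHSP (-0.24 to 0.10). The cause was not tested. Signal near background limits the dim genes: HOXA5 went from -2.96 to -3.87, HOXA7 from -3.08 to -3.91 and GRM3 from 2.41 to 3.07 with an offset of 16, and further on the processed signal.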
